A study of Homo sapiens with 6 samples.

Results

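The genes described here are 33 genes of cholesterol and fatty acid synthesis, of 59251 gene symbols in the deposited count table. They were taken by symbol from a list of enzymes and regulators, with no threshold on their values, though the list was drawn up with earlier results of these data known. They comprise 7 enzymes that lead from acetyl-CoA to farnesyl diphosphate, 12 that make squalene and sterols from it, 7 genes of sterol sensing and transport and 7 enzymes of fatty acid synthesis and desaturation. All 33 passed the filter on low counts, as did 14808 genes in all.

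RNA was sequenced from HCT116, an established human colorectal carcinoma line grown in McCoy's 5A medium with fetal bovine serum. WT (3 libraries) is labelled wild type, and MUT (3 libraries) carried the N106S substitution in both copies of eIF6, the factor that keeps the large ribosomal subunit from joining the small one. MUT cells were clones made by CRISPR/Cas9 editing, and the labels do not give how many clones there were or whether replicates were separate cultures, so the p-values speak only to the spread of these 6 libraries, which may be technical. The count tables do not show the substitution. EIF6 itself had a log2 fold change of -0.43 (SE 0.12, edgeR adjusted p = 0.11).

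Cholesterol is built from acetyl-CoA through mevalonate, farnesyl diphosphate and squalene. The SREBP transcription factors, encoded by SREBF1 and SREBF2, are held in the endoplasmic reticulum with their escort SCAP by the INSIG proteins while sterol is plentiful. When sterol falls, SCAP carries them to the Golgi, proteases release the active part, and genes of sterol and fatty acid synthesis are transcribed. INSIG1 is itself a target of SREBP, which closes a feedback loop.

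Total counts ran from 53986494 to 87656970 per library, of which 62.7% to 83.97% were 7SL, 7SK, RPPH1 and RMRP RNA. The remaining counts ran from 10252501 to 21984081, and the 33 genes held 8550 to 13339 of them. MUT replicate 2 stood apart: ribosomal RNA genes took 3.91% of its counts, against 1.16% in WT replicate 1 and 0.0891% to 0.234% in the other 4 libraries. Counts are scaled here by TMM and given as CPM, counts relative to the scaled library size. EPCAM, KRT8, KRT18 and KRT19, markers of epithelium, were measured in all libraries, whereas the epithelial markers CDH1 (at most 0.856 CPM) and VIL1 (at most 0.0616 CPM) were low or nearly absent. Of these markers EPCAM (log2 fold change -0.34) and CDH1 (-1.23) were lower and KRT8 (0.32) higher in MUT without overlap, as was the hepatocyte marker SERPINA1 (1.48, at most 0.277 CPM), and none passed edgeR's test (adjusted p from 0.119 to 0.255). Of 16 markers of hepatocytes, leukocytes, fibroblasts and endothelium, 4 passed the filter and 5 (TTR, CYP7A1, PTPRC, CD3E and CDH5) were at 0 in all libraries. Their summed level was 1.75 to 3.77 CPM in WT and 3.20 to 3.61 CPM in MUT, and the part of any of these markers in the results was not tested. In RNA from whole cultures, less RNA per cell and fewer cells that express a gene cannot be told apart.

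On TMM scaling, 5 of the 33 genes were called lower in MUT relative to the scaled library size: SCD, MVD, INSIG1, FDFT1 and ACAT2. The amount of mRNA per cell was not measured. Their levels were between 0.509 and 0.687 of those in WT, and no member was called higher. These 5 genes lie in all 4 groups of the list, from the mevalonate route (ACAT2 and MVD) and the first committed enzyme of sterol synthesis (FDFT1) to the sterol sensor INSIG1 and the desaturase SCD. A gene was called where its adjusted p was below 0.05 in edgeR's quasi-likelihood test, with Benjamini-Hochberg adjustment over all 14808 genes. By that rule 0.925% of all genes were called lower and 0.986% higher, and 0 members were higher at an unadjusted p below 0.05 or by DESeq2. By library size alone, 1 member was higher and 0 lower at an unadjusted p below 0.05 in edgeR's test. Of the 33 members, 28 had log2 fold changes below 0, against 51.3% of all genes, and their median was -0.27, against -0.01 for all genes. For 11 members every MUT value was below every WT value, and for 0 every MUT value was above. Of all genes 13.4% were lower without overlap and 12.8% higher. At an unadjusted p below 0.05, 9 members were lower, against 9.84% of all genes.

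The calls depended on single libraries and on scaling. Leaving out any 1 library also leaves fewer samples for the test. Leaving out WT replicate 1, 2 or 3 or MUT replicate 1 or 3 left 0 members called and 27 to 61 genes in all, while leaving out MUT replicate 2 left 4 members called (SCD, MVD, INSIG1 and FDFT1) and 442 genes in all. With 1 library left out, the log2 fold change ran from -1.01 to -0.80 for SCD, from -1.11 to -0.80 for MVD, from -0.80 to -0.69 for INSIG1, from -0.61 to -0.54 for FDFT1 and from -0.58 to -0.48 for ACAT2. Scaling by library size alone also left 0 members called. There the median of all genes was 0.54 and that of the members 0.29, and 27 of the 33 lay below the median of all genes although only 6 were below 0. Of the mevalonate enzymes 1 of 7 was below 0 on that scaling, and of the fatty acid enzymes 2 of 7.

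**Figure D1:**
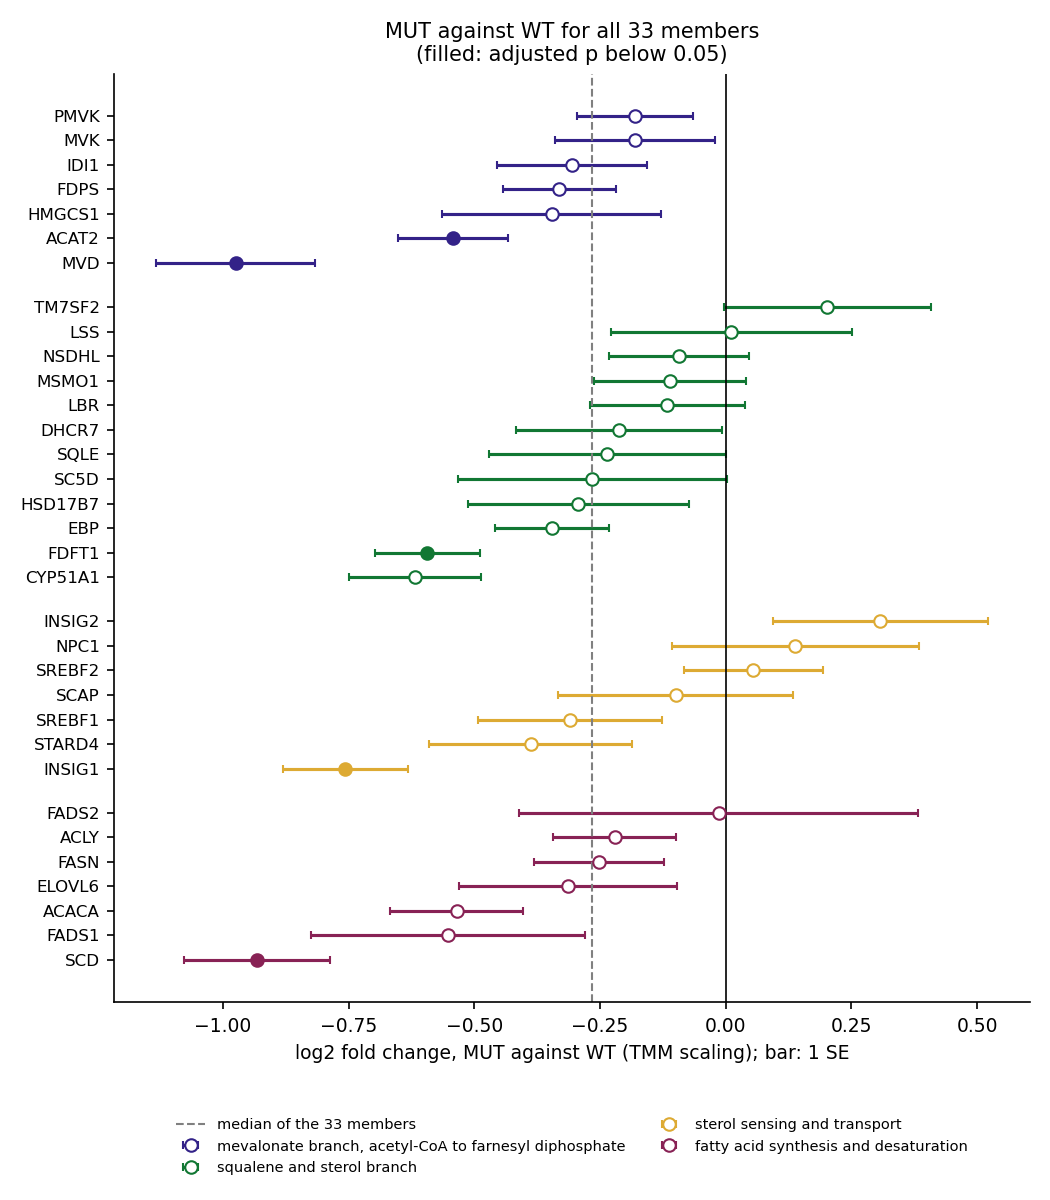
Log2 fold change of MUT against WT (horizontal axis, TMM scaling) for each of the 33 genes, grouped and coloured by role, with bars of 1 standard error and filled points for genes with an adjusted p below 0.05. With this scaling 28 points lie left of 0 (6 by library size alone), the 5 filled ones among them, and the dashed line marks the members' median of -0.27.

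In the mevalonate route, all 7 listed enzymes had log2 fold changes below 0 on TMM scaling and 2 were called. By library size alone 1 of 7 was below 0. The list leaves out some central genes of the pathway, so these values do not cover the whole route. MVD, mevalonate diphosphate decarboxylase, removes a carboxyl group to give isopentenyl diphosphate (chromosome 16, 88651940 to 88663091, GRCh38). In WT it reached 6.44, 5.59 and 5.76 CPM, compared with 3.56, 2.37 and 3.15 CPM in MUT. Every MUT value lay below every WT value, and the lowest was in MUT replicate 2. The log2 fold change was -0.97 (SE 0.16, edgeR adjusted p = 0.0228).

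ACAT2 joins acetyl-CoA units at the start of the route (chromosome 6, 159762045 to 159779112). It stood at 7.20, 8.04 and 8.05 CPM in WT and at 5.02, 5.34 and 5.63 CPM in MUT. The groups did not overlap, and the fold change was the smallest of the 5 calls, -0.54 (SE 0.11, edgeR adjusted p = 0.0445). ACAT2 lost its call with DESeq2's size factors (adjusted p = 0.0513) and in limma-voom (0.0516), and by library size alone its log2 fold change turned to 0.0058.

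FDPS, which makes farnesyl diphosphate, was the most abundant of this group per length, at 2.93 ± 0.91 TPM in WT (n = 3). Its level was 14.3, 15.7 and 16.5 CPM in WT and 11.9, 12.5 and 12.6 CPM in MUT, without overlap. The log2 fold change of FDPS, -0.33 (SE 0.11, edgeR adjusted p = 0.152), did not pass the test. HMGCS1, which makes HMG-CoA (-0.35), the isomerase IDI1 (-0.31) and the kinases MVK and PMVK (-0.18 each) had overlapping groups and adjusted p-values in edgeR's test from 0.301 to 0.597.

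In the squalene and sterol branch, 1 of 12 enzymes was called. FDFT1, squalene synthase, joins farnesyl diphosphate units head to head and commits them to sterol (chromosome 8, 11795582 to 11839298). It was measured at 12.3, 12.6 and 12.1 CPM in WT and at 7.74, 8.37 and 8.41 CPM in MUT. On TMM scaling the spread within each group was small beside the gap between them, at 12.3 ± 0.28 CPM against 8.17 ± 0.38 CPM (SD, n = 3). The log2 fold change was -0.59 (SE 0.10, edgeR adjusted p = 0.0294). By library size alone it was -0.042 (edgeR adjusted p = 0.943). On log2(TPM + 1) and log2(TPM + 0.1) it was -0.028 and -0.050.

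CYP51A1, the demethylase of lanosterol, had the lowest fold change of this branch but fell just short of the threshold. It stood at 4.13, 4.81 and 4.42 CPM in WT and at 3.16, 2.55 and 3.02 CPM in MUT, without overlap (log2 fold change -0.62, SE 0.13, edgeR adjusted p = 0.0515). DESeq2's test on the same genes called it (-0.61, adjusted p = 0.0353). That test called 5.13% of all genes, against 1.91% in edgeR's. CYP51A1 was called in 4 of the 17 other settings that tested it. By library size alone it had -0.11 (edgeR adjusted p = 0.829). EBP, a sterol isomerase, also had groups that did not overlap, at 7.18, 7.82 and 8.45 CPM in WT and 6.02, 6.60 and 5.80 CPM in MUT (-0.35, SE 0.11, edgeR adjusted p = 0.143).

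The other 9 enzymes of the branch had overlapping groups. SQLE, the epoxidase that follows FDFT1 and a rate-limiting step of the pathway, ran from 1.44 to 2.51 CPM in WT and from 1.32 to 1.91 CPM in MUT. Its log2 fold change was -0.24 with a standard error as large (0.24), and the groups overlapped. LSS, which closes the sterol rings, stood at 0.01 (SE 0.24). The late enzymes MSMO1 (-0.11), NSDHL (-0.09), HSD17B7 (-0.29), SC5D (-0.27) and DHCR7 (-0.21) did not pass, nor did the sterol reductases LBR (-0.12) and TM7SF2 (0.20), both of which act on the same double bond. Some of these rest on few counts, such as SC5D with 33 to 73 per library. Reads of HSD17B7 may be divided with its pseudogenes, whose rows held 12.7% as many counts as HSD17B7. For IDI1, FDPS, CYP51A1 and SCD that share was below 1%.

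**Figure D2:**
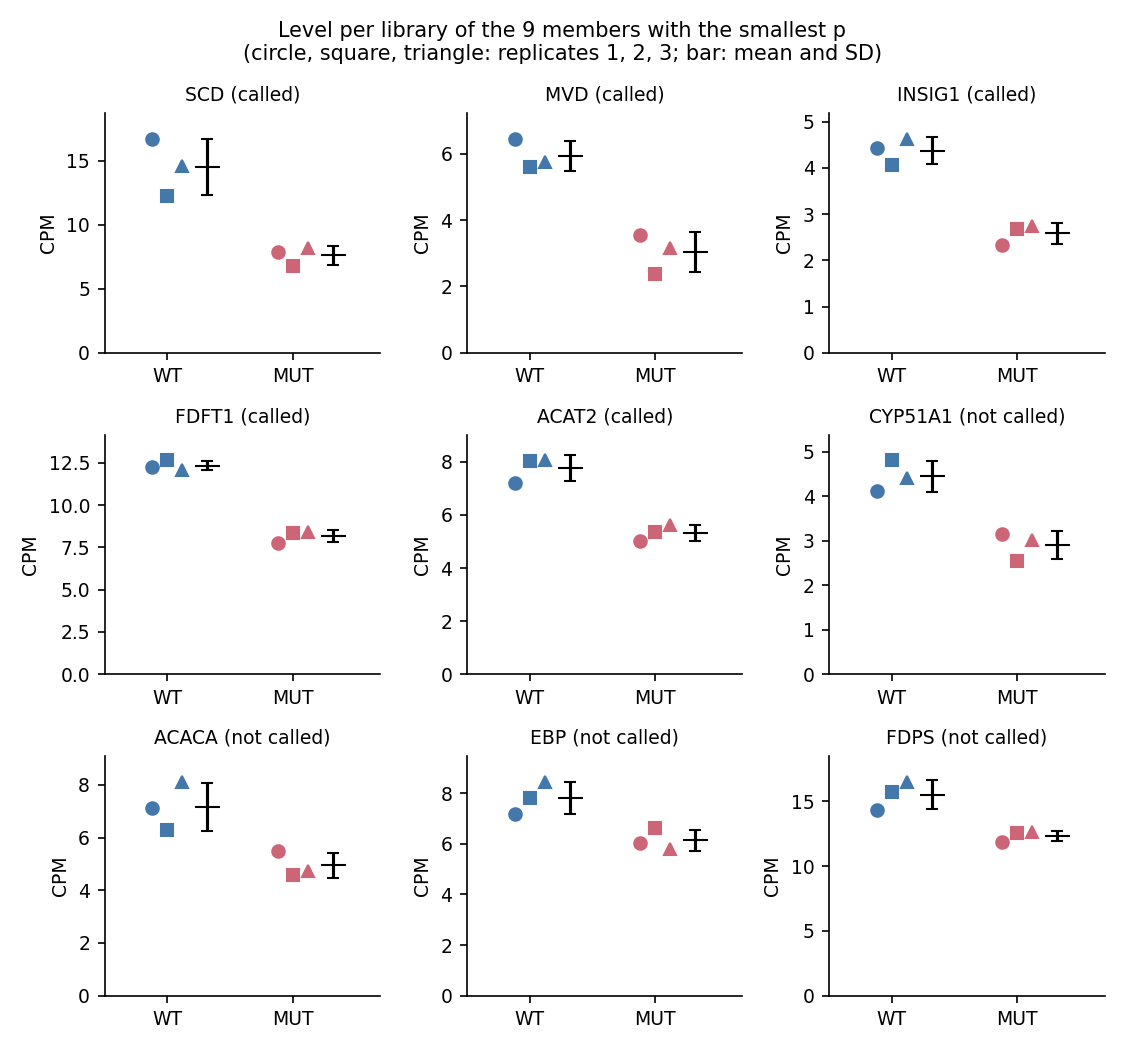
CPM (vertical axis, from 0) in each WT and MUT library for the 9 genes with the smallest p, with circles, squares and triangles for replicates 1, 2 and 3 and bars for the mean and SD of each group. In each of these 9 panels the 3 MUT points lie below the 3 WT points. The panels were chosen by p in this same comparison, which favours groups that do not overlap. Among all 33 members 11 were lower without overlap, against 13.4% of all genes.

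Among the genes of sterol sensing and transport, INSIG1 was called and the other 6 lay on both sides of 0. INSIG1 (chromosome 7, 155297878 to 155310235) was measured at 4.43, 4.06 and 4.63 CPM in WT and at 2.33, 2.68 and 2.75 CPM in MUT, with the lowest value in MUT replicate 1. The groups did not overlap (log2 fold change -0.76, SE 0.12, edgeR adjusted p = 0.0242). Its paralog INSIG2, which also retains SCAP, stood at 1.33, 1.91 and 1.62 CPM in WT and at 1.55, 2.13 and 2.36 CPM in MUT. Those groups overlapped (0.31, SE 0.21, edgeR adjusted p = 0.481), and the difference between the paralogs was not tested.

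The transcripts of the SREBP proteins themselves were not called. SREBF1 stood at 6.43, 5.71 and 9.46 CPM in WT and at 5.38, 5.80 and 6.18 CPM in MUT (log2 fold change -0.31, SE 0.18, edgeR adjusted p = 0.396), with WT replicate 3 above the other 5 libraries. SREBF2 stood at 5.36, 4.22 and 4.93 CPM in WT and at 4.93, 4.45 and 5.72 CPM in MUT (0.05, SE 0.14, adjusted p = 0.877), with groups that overlapped over most of their range. The active SREBP fragments are made by cleavage of the proteins, which RNA levels do not measure. The escort SCAP (-0.10), the lysosomal cholesterol exporter NPC1 (0.14) and the sterol carrier STARD4 (-0.39) were not called either. SCAP was lowest in MUT replicate 2, at 5.73 CPM against 7.59 to 11.5 CPM in the other libraries. The median of the group of 7 turned from -0.10 to 0.14 without that library, to 0.079 without WT replicate 3 and to 0.036 in the 4 libraries lowest in ribosomal RNA.

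All 7 enzymes of fatty acid synthesis and desaturation had log2 fold changes below 0 on TMM scaling, and 1 was called. On that scaling 51.3% of all genes were below 0. With DESeq2's size factors and in limma-voom 6 of 7 were below 0, and FADS2 turned to 0.0024 and 0.15. By library size alone 2 of 7 were below 0. SCD, stearoyl-CoA desaturase, which makes monounsaturated fatty acids, had the smallest p of the 33 genes (chromosome 10, 100347233 to 100364826). It was measured at 16.7, 12.3 and 14.6 CPM in WT and at 7.90, 6.76 and 8.15 CPM in MUT. The highest MUT value lay well below the lowest WT value (log2 fold change -0.93, SE 0.15, edgeR adjusted p = 0.0199).

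The rest of the group had smaller values. ACACA, acetyl-CoA carboxylase, stood at 7.11, 6.29 and 8.12 CPM in WT and at 5.50, 4.59 and 4.74 CPM in MUT, without overlap (-0.53, SE 0.13, edgeR adjusted p = 0.0744). FASN, fatty acid synthase, had the highest CPM of all 33 genes, 24.9, 24.0 and 30.9 in WT and 22.2, 22.0 and 22.7 in MUT. Its groups did not overlap, though the gap was narrow (-0.25, SE 0.13, adjusted p = 0.326). ACLY, which makes cytosolic acetyl-CoA from citrate, was similar in this (-0.22, SE 0.12, adjusted p = 0.364). The elongase ELOVL6 (-0.31) and the desaturases FADS1 (-0.55, SE 0.27) and FADS2 (-0.01, SE 0.40) had overlapping groups. WT replicate 3 was the highest library for FADS1, FADS2 and ELOVL6, at 3.10, 1.83 and 1.60 CPM.

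**Figure D3:**
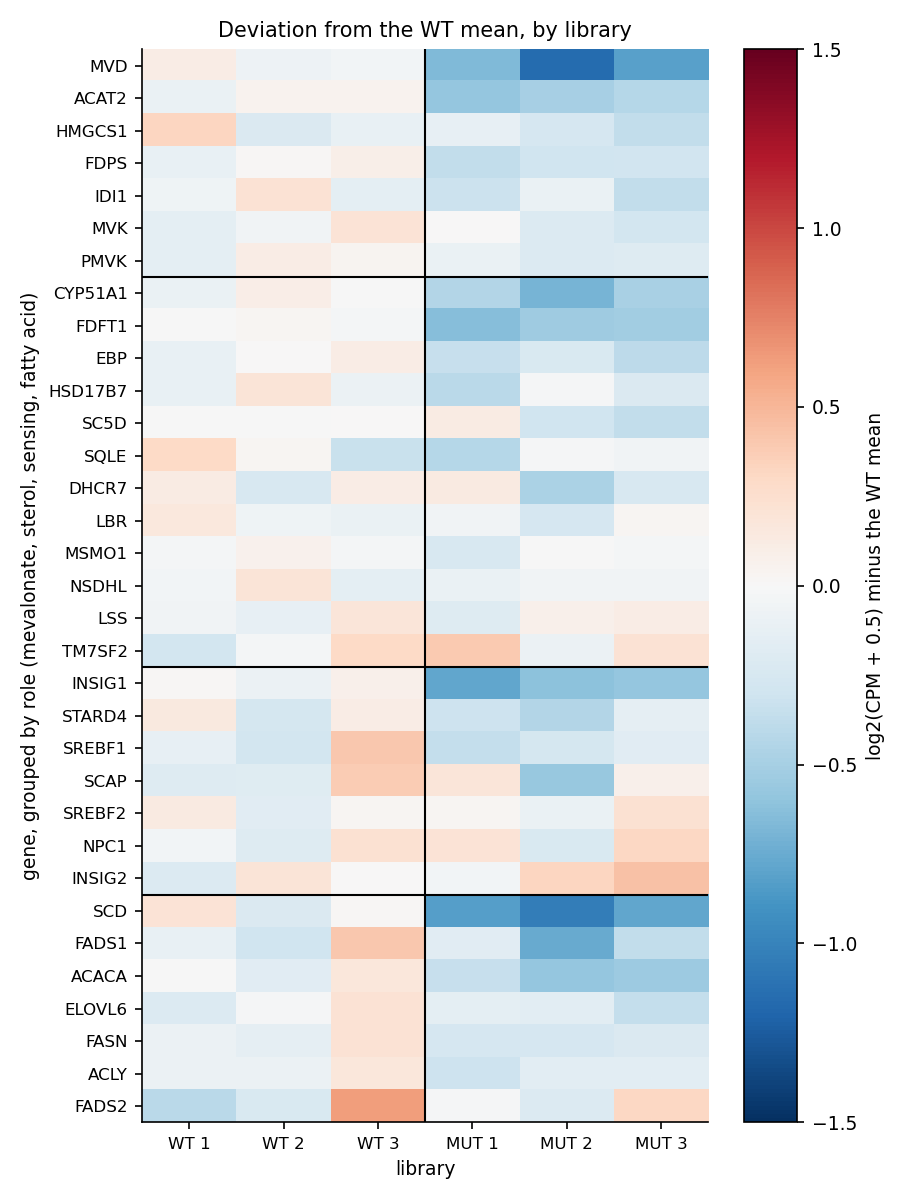
Difference of log2(CPM + 0.5) from the WT mean (colour) for the 33 genes (rows, grouped by role) in the 6 libraries (columns). The rows of SCD, MVD and INSIG1 are blue in all 3 MUT columns, and the rows of NPC1, INSIG2, TM7SF2 and FADS2 are mixed.

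Library by library, the median deviation of the 33 genes from their WT mean was -0.07, -0.06 and 0.08 in WT and -0.24, -0.25 and -0.21 in MUT on the log2(CPM + 0.5) scale. The 3 MUT libraries were thus close to each other, MUT replicate 2 included, and below each WT library. Over all tested genes these medians lay between -0.01 and 0.01 in every library, near 0 largely because TMM scaling places them there. By library size alone the median log2 fold change was 0.29 for the members and 0.54 for all genes. For the mevalonate enzymes the medians were -0.10, 0.02 and 0.04 in WT and -0.32, -0.25 and -0.37 in MUT. For the fatty acid enzymes they were -0.09, -0.17 and 0.22 in WT and -0.25, -0.26 and -0.36 in MUT, so that WT replicate 2 lay close to the MUT libraries. The genes of sensing and transport differed, with -0.04, -0.26 and 0.08 in MUT against -0.04, -0.18 and 0.11 in WT.

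Per length, the list spanned a wide range of levels. On the TPM scale, EBP (1.69 ± 0.48), PMVK (1.49 ± 0.55), FDFT1 (1.46 ± 0.49) and ACAT2 (1.22 ± 0.39) followed FDPS in WT (SD, n = 3). The means of these 4 lay within their spread, which all genes of a library share in part: in each WT library EBP was the highest of the 4 and ACAT2 the lowest. FASN (0.707 ± 0.13), SCD (0.623 ± 0.12) and ACLY (0.597 ± 0.13) lay lower and close together. The lowest WT levels were those of SC5D (0.03 ± 0.01), ELOVL6 (0.0433 ± 0.015), LSS (0.0467 ± 0.0058) and NPC1 (0.0633 ± 0.0058), where the deposited precision of 0.01 limits the value. All these levels are low because 7SL RNA and its like take most of each library, and the 33 genes together made up 13.6 to 29.4 TPM. The TPM values of all 5 called genes overlapped between WT and MUT. MVD had 0.75, 0.94 and 0.57 TPM in WT and 0.50, 0.70 and 0.53 TPM in MUT, and the mean of ACAT2 was higher in MUT, at 1.32 against 1.22 TPM.

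The regions before the starts of the called genes are shown because sterol-regulated promoters typically pair SREBP sites with sites of the factors NF-Y and Sp1. Promoter windows of 300 bases (RefSeq, GRCh38.p14) matched all members but ACAT2, FASN, FDFT1 and SQLE. The 250 bases before the annotated start of SCD, MVD and INSIG1 are given 5′ to 3′ on the gene's strand, with capitals for the CCAAT box (CCAAT, bound by NF-Y), the GC box (GGGCGG, bound by Sp1) and the palindromic E-box (CACGTG), each searched on both strands. In INSIG1, 2 GC boxes overlap by 1 base. They lie at chr10:100346983-100347232 (plus strand), chr16:88663092-88663341 (minus strand) and chr7:155297628-155297877 (plus strand).
SCD: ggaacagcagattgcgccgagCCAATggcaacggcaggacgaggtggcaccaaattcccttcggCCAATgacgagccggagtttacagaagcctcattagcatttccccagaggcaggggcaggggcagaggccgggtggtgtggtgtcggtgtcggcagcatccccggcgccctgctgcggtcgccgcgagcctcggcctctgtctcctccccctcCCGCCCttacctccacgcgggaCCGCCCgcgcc
MVD: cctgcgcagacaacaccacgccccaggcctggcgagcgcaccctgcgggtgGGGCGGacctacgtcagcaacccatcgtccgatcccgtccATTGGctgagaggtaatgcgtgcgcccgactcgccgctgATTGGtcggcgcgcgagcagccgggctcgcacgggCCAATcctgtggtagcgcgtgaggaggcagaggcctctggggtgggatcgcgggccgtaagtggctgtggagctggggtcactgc
INSIG1: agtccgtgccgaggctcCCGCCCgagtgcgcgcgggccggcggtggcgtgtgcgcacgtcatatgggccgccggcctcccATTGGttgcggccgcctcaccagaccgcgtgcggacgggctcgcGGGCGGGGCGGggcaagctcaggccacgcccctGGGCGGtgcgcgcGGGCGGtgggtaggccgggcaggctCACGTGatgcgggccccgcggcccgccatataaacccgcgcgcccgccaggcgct

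The window before SCD held 2 CCAAT boxes and 2 GC boxes, that before MVD 3 CCAAT boxes and 1 GC box, and that before INSIG1 1 CCAAT box, 5 GC boxes and 1 palindromic E-box, from 55 to 50 bases before the start. Over the full windows of 300 bases, 20 of 29 matched members (69.0%) held a CCAAT box, against 42.1% of 15843 protein-coding genes and 39.7% of all 27305 genes in the table. A GC box was present in 27 members (93.1%), against 64.3% of protein-coding and 48.3% of all genes. The palindromic E-box was present in 4 members (13.8%), against 10.9% and 8.77%. One spelling of the sterol regulatory element, TCACNCCAC, was present in 1 member, SREBF2, and in 1.51% and 1.39% of the genes. A gene with several windows was counted once, if any window held the motif. These counts describe letters in a window and not binding.

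On chromosome 16, MVD has neighbours that were also lower in MUT. Of 30 other tested genes whose lower coordinate lies within 1 Mb of that of MVD, 23 had log2 fold changes below 0 (median -0.45) and 5 were called lower: CDT1 (-1.29), APRT (-0.85), CYBA (-0.75), CPNE7 (-0.71) and ACSF3 (-0.68). That is 16.7%, against 0.925% of all genes called lower. The part of this neighbourhood in the value of MVD was not tested. Without MVD, 4 of 32 members were called, and the median was -0.26.

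**Figure D4:**
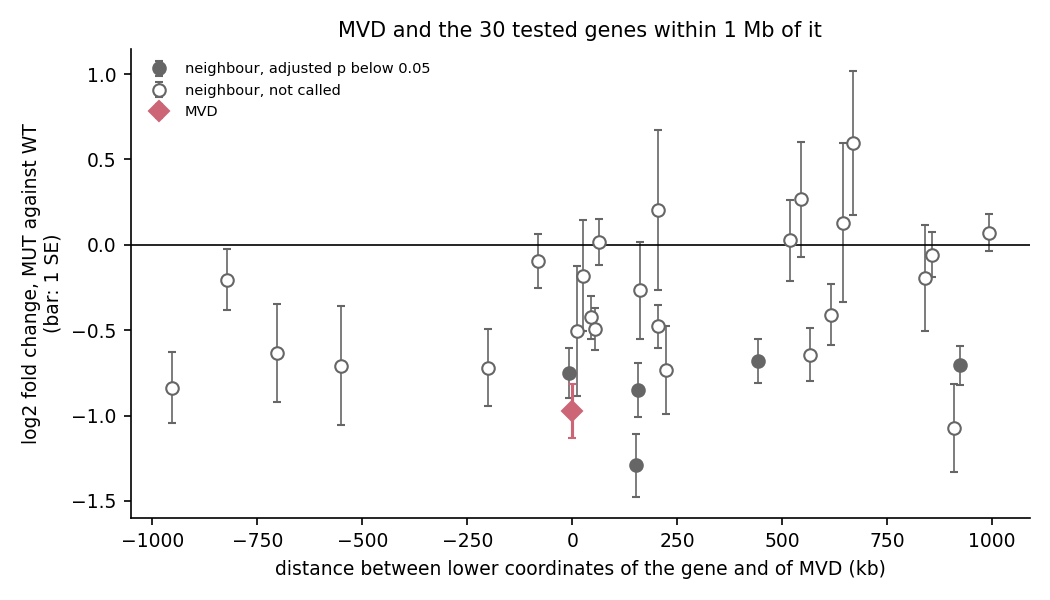
Log2 fold change of MUT against WT (vertical axis, bars of 1 standard error) for MVD (diamond) and the 30 tested genes within 1 Mb of it, by distance in kb between the lower coordinates of each gene and of MVD (horizontal axis). Filled circles are the 5 called neighbours, all below 0, and 7 of the open circles lie above 0.

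Other genes of lipid metabolism, 63 in 7 lists, were tested in the same fit. Of the 60 that passed the filter, 0 were called by edgeR's quasi-likelihood test and 1 by DESeq2's, and 31 had log2 fold changes below 0 (median -0.0042). These tests called 1.91% and 5.13% of all genes, so few calls would be found among 60 genes at those shares. At an unadjusted p below 0.05, 10 were lower and 8 higher, against 9.84% and 9.79% of all genes. NPC2, which binds cholesterol in lysosomes, was the gene called by DESeq2 (-0.58, adjusted p = 0.0309). In edgeR's test it had -0.59 (SE 0.17, adjusted p = 0.109), from 22.3, 29.5 and 21.2 CPM in WT to 15.3, 19.2 and 14.0 CPM in MUT, without overlap.

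Of 12 further targets of SREBP, 10 had values below 0 and 4 were lower at an unadjusted p below 0.05 (median -0.19). With DESeq2's size factors and in DESeq2's test, 8 of the 12 were below 0. By library size alone 0 of the 12 were below 0 (median 0.36), and with the abundant RNAs removed 4 were (median 0.048). Without WT replicate 1 the median was -0.092, and without WT replicate 2 it was -0.12. The fatty acid ligase ACSL3 (-0.49, SE 0.12, edgeR adjusted p = 0.073) and the elongase ELOVL5 (-0.39, SE 0.11, adjusted p = 0.103) came closest to the threshold. Of 8 genes that process SREBP or act in sterol-dependent degradation, 6 had values above 0 (median 0.33) and 3 were higher at an unadjusted p below 0.05. The ubiquitin ligase RNF139 had the smallest p of these (0.59, SE 0.16, edgeR adjusted p = 0.098) and was not called. It was called with no low-count filter (0.61, edgeR adjusted p = 0.0192) and in both settings without the abundant RNAs, by library size alone (0.83, edgeR adjusted p = 0.0275) and on rescaled TPM (0.73, limma adjusted p = 0.0389).

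The other lists had medians nearer 0. Of the other branches of the mevalonate pathway (9 genes, median 0.10), NUS1, which acts in dolichol synthesis (0.46), and the prenylation enzyme subunit PGGT1B (0.34) had the smallest p. Of sterol export and storage (7 of 9 tested, median -0.04), these were NPC2 and the oxysterol receptor NR1H3 (-0.45), while the exporters ABCA1 and ABCG1 did not pass the filter. The other elongases and desaturases (8 of 9 tested, median -0.02) had HACD2 (0.87, SE 0.25) and ELOVL1 (0.39, SE 0.11) on the higher side. Of fatty acid oxidation (9 genes, median -0.05) the smallest p were those of ECI1 (-0.34) and ACAA2 (-0.48). Of lipid droplets and triglyceride (7 genes, median -0.09), they were those of the lipase PNPLA2 (-0.47) and the droplet coat gene PLIN2 (-0.22). None of these passed edgeR's test, with adjusted p-values from 0.102 to 0.273. NPC2 (-0.58) and HACD2 (0.88) were called with no low-count filter, and NPC2 also with the replicate block, in the 4 libraries lowest in ribosomal RNA and without MUT replicate 2. Without the abundant RNAs, 7 of 60 related genes were called higher by library size alone and 4 of 51 on rescaled TPM. Of all genes, 8.61% and 10.6% were called there in either direction. HACD2, ELOVL1 and the fatty acid oxidation gene ACADVL were called higher in both settings. ACADVL had 0.34 in the main fit (SE 0.12, edgeR adjusted p = 0.17), without overlap. NUS1, and ERLIN1 of the SREBP processing list, were called higher in the first only, where the median of all genes was 0.23.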

How the data were processed

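RNA of 3 WT and 3 MUT libraries of HCT116 was analysed. The authors deposited expected counts, all whole numbers, so rounding changed none, and TPM values normalised for depth and transcript length. Tools recorded in the submitters' processing notes, with no roles, are STAR 2.5.2b, FastQC 0.12.1, DESeq2 1.42.0 and RSEM 1.2.28, with build GRCh38 (hg38). An estimator such as RSEM divides reads between near-identical genes. Strandedness is not given in the sources used here.

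The comparison used edgeR 4.0.16 under R 4.3.3, with filterByExpr (minimum count 10, total 15), TMM factors and the quasi-likelihood test of MUT against WT with no covariate. Standard errors are the log2 fold change divided by the square root of F. Gene positions came from a RefSeq table of GRCh38.p14, which matched all 33 members, and promoters from another, which matched 29. The procedure was tested on counts simulated with the spread and scaling fitted to these libraries. Such counts cannot show how the calls depend on scaling or on single libraries. The comparison was repeated under 19 other settings, among them DESeq2 1.42.0 and limma 3.58.1, of which 2, without the abundant RNAs, were chosen after seeing the data. Those 2 also left out the 578 ribosomal RNA genes. The 2 libraries of each group with less ribosomal RNA formed a fit of their own.

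Members, lists and alternatives were chosen with earlier results of these data known. All members are described, called ones in every library. Of the related lists, called genes and the 2 with the smallest p are named, except 1 gene that is not reported here. Called neighbours of MVD are named. Promoters are shown for the called members in the table. The deposited FPKM values were not used.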

Additional observations from a re-analysis of the deposited data

How the results depend on the processing

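The calls depended on scaling and on single libraries. The median of the members tested lay 0.15 to 0.29 below that of all tested genes, on the log2 scale, under the 19 alternatives. A scaling moves all genes nearly alike and so nearly cancels in this difference, which says nothing about stability to scaling. The end at 0.15 rests on 29 members (rescaled TPM) and that at 0.29 on 31 (1 CPM in 3 libraries). Of the 14808 genes, 283 were called. The count over all genes was 1195 with no low-count filter, 462 with a minimum of 1 CPM in 3 libraries, 760 in DESeq2's test, 108 by library size alone, 21 and 10 on log2(TPM + 1) and log2(TPM + 0.1), and 27 to 442 with 1 library left out. With the abundant RNAs removed it was 1290 by library size alone and 1144 on rescaled log2(TPM + 1). Of the calls, 146 were higher and 137 lower, against 95 and 13 by library size alone, 1196 and 94 with abundant RNAs removed, and 1097 and 47 on rescaled TPM, where the medians of all genes were 0.54, 0.23 and 0.25. Members called lower numbered 5, or 0 by library size alone and on both TPM scales, 0 to 4 with 1 library left out, and 2 (MVD and SCD) and 0 with abundant RNAs removed. On the TPM scales 5 members passed the minimum of 1 TPM in 3 libraries. The members' median was 0.29 by library size alone, 0.19 and 0.26 on the TPM scales, -0.27 to -0.16 with 1 library left out, and -0.035 and 0.10 with abundant RNAs removed. ACAT2 turned sign to 0.0058 by library size alone and to 0.051 and 0.072 on log2(TPM + 1) and log2(TPM + 0.1). Members called higher numbered 0 throughout. At an unadjusted p below 0.05, 1 member was higher and 0 lower by library size alone. With abundant RNAs removed, 1 was higher and 6 lower by library size alone, and 3 higher and 4 lower on rescaled TPM. Of 565 member values under alternatives, 43 lost a call with the same sign and 5 gained one. For members not called, 77 values lay on the other side of 0, 54 of them on scalings without TMM or size factors. The replicate block gave 296 genes and the same 5 members. Deviations of same-numbered libraries correlated at -0.46, -0.11 and 0.32, so the numbers were not taken to pair them. Only MUT replicate 3 correlated best with its own number. MUT replicate 1 correlated best with WT replicate 3 (0.36) and MUT replicate 2 with WT replicate 1 (0.49). The 4 libraries lowest in ribosomal RNA gave 4 members among 395 genes, and adding a covariate for the highest 2 gave 6 among 407.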
